A study of Mus musculus with 8 samples.

Results

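MHC class I molecules show fragments of a cell's own proteins at its surface, and 10 genes that build, load or regulate them are described here in oligodendrocytes, microglia and T cells of the aged mouse brain. They were chosen by name: the heavy chains H2-K1, H2-D1 and H2-T23, the light chain B2m, the peptide transporter subunits Tap1 and Tap2, the loading factor Tapbp, the immunoproteasome subunits Psmb8 and Psmb9, and the transactivator Nlrc5. These are 10 of the 16999 genes that were counted in both genotypes, and earlier results of these data were known at their choice. They were read in 15604 oligodendrocytes by the authors' clusters, in 7421 microglia of Rag1-/- libraries by the authors' clusters, and in 406 T cells of wild-type libraries, a T cell being a cell with at least 3 unique molecular identifiers (UMIs) of Cd3d, Cd3e and Cd3g together.

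The study asked how white matter aging differs with and without functional lymphocytes. Its deposited 10x single-cell data hold 8 libraries of 24-month-old mice. Wild-type mice (labelled C57BL/6) gave 2 gray matter libraries from the prefrontal cortex and 2 white matter libraries from the corpus callosum, optic tract and medial lemniscus, and the gray and white libraries of one number came from the same pool of mice. By the labels the wild-type libraries 1 are of batch 1 and the libraries 2 of batch 2, so pool and batch coincide there. Rag1-/- mice lack mature T and B cells. They gave 1 gray and 1 white matter library from a pool and 2 further white matter libraries from single mice. The labels put that gray library and white library 1 in batch 1 and white libraries 2 and 3 in batch 2, and the methods give these batches different versions of the counting software. Their label names the strain NOD.129S7(B6)-Rag-1tm1Mom/J, whereas the study's methods name B6.129S7-Rag1tm1Mom/J. NOD and C57BL/6 mice carry different alleles in the H2 complex, where 8 of the 10 genes lie, so how well reads of the H2 genes match the reference may depend on which name holds, and this was not tested. Genotype also coincides with the experiment and with the version of the counting software, and these cannot be told apart from it. All cells were freed with papain in the presence of actinomycin D and sorted as live cells.

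Library size set how firmly each gene can be read. Wild-type gray libraries held 284 and 1119 oligodendrocytes, and wild-type white libraries 494 and 4106. The Rag1-/- gray library held 1055 and the Rag1-/- white libraries 3055, 1632 and 3859. Levels are given in CPM, the UMIs scaled to a total of 1000000 for the summed cells of a class in a library. Summed oligodendrocyte markers (such as Mbp and Mog) lay between 40868 and 47547 CPM in every library, which fits the cell type named. Microglial markers such as C1qa and Cx3cr1 summed to 981 and 609 CPM in the gray and white oligodendrocytes of wild-type pool 1, to 107 and 80.02 in pool 2, and to 109 to 326 in Rag1-/- libraries, against at least 42486 in Rag1-/- microglia. Some results on oligodendrocytes are therefore also given without wild-type pool 1, which leaves a single library of each wild-type tissue. Fits with clusters left out and fits of subclusters were not repeated that way. Astrocyte markers (Aqp4, Slc1a2 and Gja1) in oligodendrocytes moved with tissue, at 156 and 134 CPM in wild-type gray, 20.1 and 17.6 in wild-type white, 124 in Rag1-/- gray and 15.6 to 59.0 in Rag1-/- white libraries, and their part in the results was not tested. At most 15 cell barcodes were shared by any pair of libraries.

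Class I heavy chains fold around B2m and a peptide. Proteins are cut by the proteasome, in which Psmb8 and Psmb9 replace constitutive catalytic subunits when interferon is present. Tap1 and Tap2 pump the peptides into the endoplasmic reticulum, where Tapbp (tapasin) holds empty heavy chains at the transporter. H2-K1 and H2-D1 are the classical heavy chains read by CD8+ T cells, and H2-T23 encodes Qa-1, a nonclassical chain read by receptors of natural killer and T cells. Nlrc5 drives transcription of this set from promoters with a shared box structure, and in the healthy brain neurons and oligodendrocytes are known for low class I levels.

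On mouse build GRCm38 (GENCODE vM21) all 10 are protein-coding genes, 8 of them in the MHC on chromosome 17. H2-K1 lies at chr17:33996017-34000347 on the minus strand, H2-D1 at chr17:35262730-35267499 and Tap1 at chr17:34187553-34197225 on the plus strand. Psmb9, Tap1, Psmb8 and Tap2 follow one another between chr17:34181987-34216321. B2m lies at chr2:122147686-122153083 and Nlrc5 at chr8:94434356-94527272.

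Promoter windows of 300 bases, from 250 before to 50 after the RefSeq transcription start (GRCm38.p6), were available for 8 of the 10 genes, and 4 are printed. H2-K1, H2-D1 and B2m are the members that the fits without a block call below in all oligodendrocytes, and Tap1 shares its promoter with Psmb9. Capitals mark matches on either strand to GAANNGAAA (an interferon-response core), a pair of GAAA runs 2 bases apart (a full interferon-response element), the NF-kappaB consensus, TGACG (the core of the X2 box) and CCAAT. The sequences run 5′ to 3′ along each gene.
H2-K1, chr17:34000298-34000597, minus strand: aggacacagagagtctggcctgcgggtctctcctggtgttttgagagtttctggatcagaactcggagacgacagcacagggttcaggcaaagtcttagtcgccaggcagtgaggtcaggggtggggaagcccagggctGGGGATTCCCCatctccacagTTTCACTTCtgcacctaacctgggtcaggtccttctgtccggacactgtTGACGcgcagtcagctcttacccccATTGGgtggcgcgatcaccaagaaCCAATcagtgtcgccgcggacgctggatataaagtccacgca
H2-D1, chr17:35262844-35263143, plus strand: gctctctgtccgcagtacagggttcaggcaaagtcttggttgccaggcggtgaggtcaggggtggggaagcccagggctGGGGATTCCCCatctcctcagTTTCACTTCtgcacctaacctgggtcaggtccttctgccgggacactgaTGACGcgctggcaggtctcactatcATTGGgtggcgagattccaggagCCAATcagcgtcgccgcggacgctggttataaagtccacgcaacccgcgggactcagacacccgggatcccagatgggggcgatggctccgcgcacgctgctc
B2m, chr2:122147437-122147736, plus strand: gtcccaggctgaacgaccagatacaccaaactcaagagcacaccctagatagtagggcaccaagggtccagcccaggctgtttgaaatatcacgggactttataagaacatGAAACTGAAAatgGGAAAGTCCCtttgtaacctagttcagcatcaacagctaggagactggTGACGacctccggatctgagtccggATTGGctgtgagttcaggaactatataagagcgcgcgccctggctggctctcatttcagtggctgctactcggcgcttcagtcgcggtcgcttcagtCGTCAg
Tap1, chr17:34187306-34187605, plus strand: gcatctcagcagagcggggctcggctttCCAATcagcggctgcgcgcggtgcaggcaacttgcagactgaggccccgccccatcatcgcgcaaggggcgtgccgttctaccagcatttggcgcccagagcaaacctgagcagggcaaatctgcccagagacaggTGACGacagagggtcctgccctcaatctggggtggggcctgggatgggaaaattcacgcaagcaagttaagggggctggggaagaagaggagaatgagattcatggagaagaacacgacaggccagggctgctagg

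H2-K1 and H2-D1 share a run of 47 identical bases and are 73.3% identical over 240 bases without gaps. In both, an NF-kappaB match and the interferon-response core stand side by side before the X2 box core and 2 CCAAT matches. The core GAANNGAAA was found in 2 of the 8 windows (H2-K1 and H2-D1), against 7.56% of 27025 mouse promoter windows. The full element, which does not contain the first motif, was found in B2m and H2-T23, against 3.49% of all windows. The NF-kappaB consensus was matched in H2-K1, H2-D1 and B2m (8.18% of all windows), TGACG in 5 of 8 (21.0%) and CCAAT in 7 of 8 (37.9%). The Tap1 and Psmb9 windows overlap by 275 bases, with start sites 226 bases apart on opposite strands, so the same matches count for both. These motifs were chosen with the sequences in view, and a match is a run of letters, not a binding site.

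The tissue comparison in wild-type mice asks how class I genes differ between white and gray matter oligodendrocytes. H2-D1 and B2m, a classical heavy chain and its light chain, were higher in white matter, and 8 of the 10 genes, all but Tap1 and Tap2, were higher in both white than in both gray libraries, against 19.1% of all genes tested. The members were chosen with earlier results known and vary together, so this share is a description. Levels below are CPM of the summed oligodendrocytes of a library, and they come from the 3′ ends of transcripts, so they compare libraries and not genes.

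H2-D1 was at 108 and 81.5 CPM in the 2 wild-type gray matter libraries and at 473 and 241 in the 2 white matter libraries. B2m was at 58.5 and 31.4 in gray matter and at 276 and 123 in white matter. H2-K1 was at 55.9 and 37.3 in gray matter and at 135 and 69.9 in white matter. For each of these 3 genes both white libraries lay above both gray libraries, and library 1 lay above library 2 in either tissue.

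**Figure D1:**
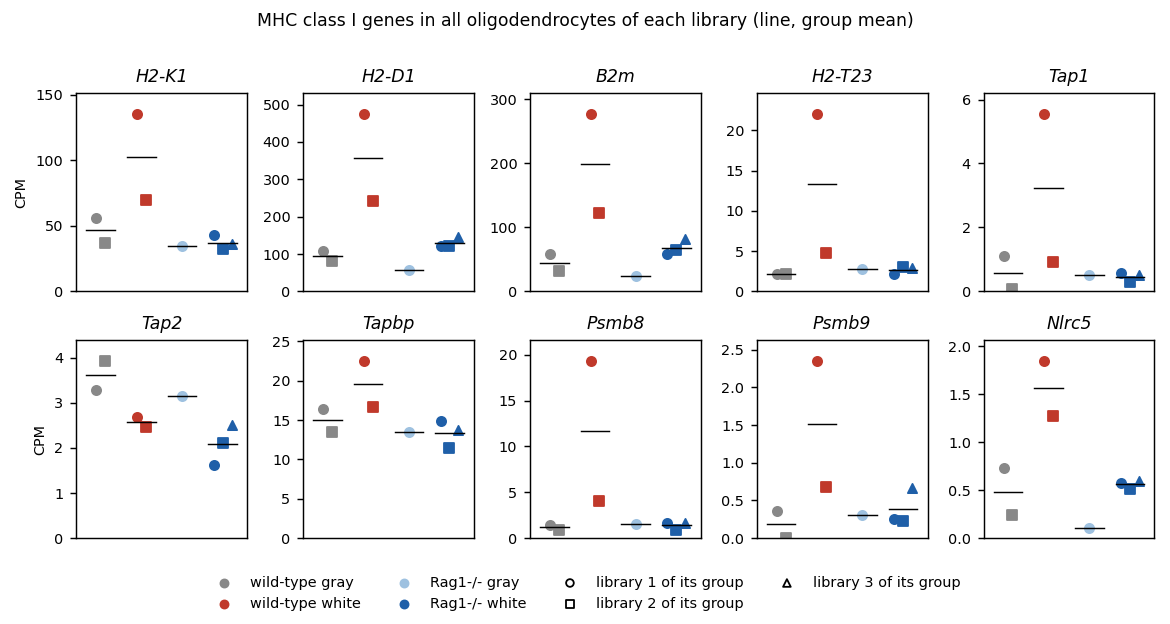
Level of each of the 10 genes in all oligodendrocytes of each library (y axis, CPM; every panel starts at 0), with 1 point a library and the groups side by side on the x axis. For H2-K1, H2-D1 and B2m, wild-type white matter libraries are above the wild-type gray matter libraries and above the 3 Rag1-/- white matter libraries, and Tap2 shows no such order.

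By edgeR's quasi-likelihood test with Benjamini-Hochberg adjustment over 13067 genes, H2-D1 was higher in white matter by 1.94 ± 0.28 (log2, SE; adjusted p = 0.0175; white 357 ± 164, gray 94.7 ± 18.6, SD, n = 2 each) and B2m by 2.22 ± 0.40 (adjusted p = 0.042; white 199 ± 108, gray 44.9 ± 19.2). Of all genes tested, 1.00% were called in this comparison, and 2 of the 10 members were. The members' median log2 fold change was 2.12, against −0.01 over all genes. Both calls rest on few libraries. In a fit of the 4 wild-type libraries alone neither was called, with H2-D1 at 1.94 (adjusted p = 0.104) and B2m at 2.21 (0.171). The H2-D1 call was lost without wild-type gray library 1 (adjusted p = 0.0833) or 2 (0.263). The B2m call was lost without either of these (0.0924 and 0.336), without wild-type white library 1 (0.0668) and without any of the 3 Rag1-/- white libraries (0.064 to 0.0868). With wild-type pool 1 left out, H2-D1 was at 1.56 and B2m at 1.96. That fit holds a single library of each wild-type tissue and takes its spread from the Rag1-/- white libraries. The microglial marker sum was lower in white than in gray matter of each wild-type pool, and T cell markers in oligodendrocytes summed to 10.1 and 2.46 CPM in white against 2.92 and 0.240 in gray matter. The part of microglial or T cell RNA in these values was not tested.

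The other members were less abundant or less regular. H2-K1 had a log2 fold change of 1.17 ± 0.30 (adjusted p = 0.164) and H2-T23 of 2.53 ± 0.69 (0.191). H2-T23 was at 2.19 and 2.16 CPM in gray matter and at 21.96 and 4.72 in white matter. Psmb8 was at 1.46 and 0.880 in gray and at 19.3 and 4.09 in white matter (3.42 ± 0.82, adjusted p = 0.132). For both genes the white libraries differed from each other more than the lower one differed from gray matter.

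Tapbp, the tapasin gene, was at 16.4 and 13.5 in gray and at 22.5 and 16.6 in white matter (0.40 ± 0.21, adjusted p = 0.615). Tap1, Psmb9 and Nlrc5 rested on 4, 1 and 5 UMIs in gray matter in all, and their log2 values of 3.13, 4.09 and 2.03 had SEs of 1.29, 1.56 and 0.76, with adjusted p from 0.401 to 0.478. Psmb9 had 0 UMIs in gray library 2, which allows up to 0.240 CPM (3 counts, counting error only). Tap2 alone pointed the other way, with 3.29 and 3.92 in gray and 2.68 and 2.46 in white matter (−0.52 ± 0.37, adjusted p = 0.777).

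Because gray and white libraries of one number share their mice, the pool can be a block in the fit. That fit called 6 members higher in white matter, H2-K1 (1.06, adjusted p = 9.85e-24), H2-D1, B2m, H2-T23 (1.89, 9.43e-08), Tap1 (2.76, 0.0224) and Psmb8 (2.80, 2.23e-10), in edgeR. It called 1310 of the 13067 genes, against 131 without the block, and left a single residual degree of freedom.

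Of the rest of the pathway, none of 8 tested heavy chains outside the 10 members, of 7 other genes of peptide generation, or of 6 other loading factors and chaperones was called, with median log2 fold changes of −0.14, 0.15 and 0.05. Of 17 regulators 1 was called, Irf9, a subunit of the complex that carries type I interferon signals to the nucleus, which was at 14.6 ± 0.97 in white and 4.52 ± 0.847 in gray matter (1.76 ± 0.23, adjusted p = 0.012). Of 6 class II genes tested none was called, with a median of 0.90.

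The genotype comparison asks how class I genes in white matter oligodendrocytes differ between Rag1-/- and wild-type mice. H2-K1 and H2-D1 were lower in Rag1-/- white matter, and 9 of the 10 genes were lower in every Rag1-/- white library than in every wild-type white library, Tap2 being the exception, against 17.3% of all genes tested. This share too is a description, for the reason given with the tissues. H2-D1 was at 123, 122 and 146 CPM in the 3 Rag1-/- white libraries, which all lay below the 473 and 241 of wild-type white matter and above the wild-type gray libraries. H2-K1 was at 42.9, 32.1 and 36.4, below both wild-type white libraries (135 and 69.9) and overlapping wild-type gray matter (55.9 and 37.3). B2m was at 57.7, 64.2 and 82.2, against 276 and 123. The 3 Rag1-/- libraries differed less from each other than the 2 wild-type white libraries did. T cell markers in these oligodendrocytes moved with genotype as well, at 10.1 and 2.46 CPM in the wild-type white libraries against at most 0.363 in those of Rag1-/- mice, and the part of T cell RNA in the result was not tested.

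The fold change was −1.39 ± 0.26 for H2-K1 (log2, SE; edgeR adjusted p = 0.0466) and −1.40 ± 0.24 for H2-D1 (adjusted p = 0.0331), with 0.911% of 13067 genes called and a median of 0.01 over all genes. B2m at −1.48 ± 0.33 (adjusted p = 0.12) and Psmb8 at −2.92 ± 0.59 (0.0758) were not called, nor was H2-T23 (−2.18 ± 0.52, 0.171). Tap1 (−2.61 ± 0.88), Psmb9 (−1.70 ± 0.86), Nlrc5 (−1.36 ± 0.53) and Tapbp (−0.47 ± 0.17) had adjusted p from 0.439 to 0.672, and Tap2 (−0.24 ± 0.32) of 0.92. Psmb8 was at 1.67, 0.844 and 1.66 CPM in the Rag1-/- white libraries, close to its gray matter level. The members' median was −1.44, and all 10 values were negative, from −0.24 (Tap2) to −2.92.

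Wild-type white library 1 weighed on these values. Without it H2-K1 was at −0.87 (adjusted p = 0.189) and H2-D1 at −0.85 (0.0754), and with wild-type pool 1 left out no member was called. Both calls were also lost without wild-type gray library 1 (0.0608 for H2-K1 and 0.0559 for H2-D1) or 2 (0.0617 and 0.0577), or without Rag1-/- white library 1 (0.086 and 0.108), 2 (0.244 and 0.176) or 3 (0.199 and 0.0871). That of H2-K1 was lost too without the Rag1-/- gray library (0.0517). In a fit of the 5 white matter libraries alone neither was called, with H2-K1 at −1.40 (adjusted p = 0.0697) and H2-D1 at −1.41 (0.061). No gene of the other heavy chains, peptide generation, loading, regulator or class II lists was called between genotypes, and the median of the 6 class II genes tested was −1.56.

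Within Rag1-/- mice, the test of white against gray matter oligodendrocytes called no member by edgeR (0 of 10, 2 at an unadjusted p under 0.05, 1 by DESeq2, with 0.436% of all genes called). H2-D1 was at 58.1 in the gray library and at 123, 122 and 146 in white matter (1.18 ± 0.34, adjusted p = 0.249), and B2m at 23.6 against 57.7, 64.2 and 82.2 (1.54 ± 0.49, 0.313). Both were thus higher in each white library than in the single gray one, an order that was not counted over all genes. In the pool that gave both tissues, H2-D1 was at 58.1 and 123 and B2m at 23.6 and 57.7. With the pool as a block, edgeR called H2-D1 (1.07, adjusted p = 5.93e-17) and B2m (1.27, 6.89e-18), and 688 of 13067 genes in all. That estimate is the difference within this one pair of libraries, and the residual spread came from the wild-type pools, so these p-values measure no spread between Rag1-/- libraries. With the labelled batch within each genotype as the block, added after the data were seen, the spread includes that between white libraries 2 and 3. The same pair then gave adjusted p = 0.000175 for H2-D1 and 3.87e-05 for B2m, with 474 genes called. H2-K1 was at 34.95 in gray and 42.9, 32.1 and 36.4 in white matter (0.10 ± 0.34), and the white libraries stood on both sides of the gray one. Nlrc5 (2.38 ± 1.121), Psmb9 (0.36 ± 1.38), Tapbp (−0.01 ± 0.23), H2-T23 (−0.07 ± 0.76), Psmb8 (−0.14 ± 0.88), Tap1 (−0.15 ± 1.33) and Tap2 (−0.57 ± 0.40) were not called either, with adjusted p from 0.556 to 0.998.

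Whether the tissue difference itself depended on genotype was tested as an interaction. No member was called by edgeR (3 at an unadjusted p under 0.05, 0 by DESeq2), and 0.00% of 13067 genes were. The wild-type difference exceeded that of Rag1-/- mice by 1.07 ± 0.45 for H2-K1, 0.77 ± 0.42 for H2-D1, 0.68 ± 0.59 for B2m, 2.61 ± 1.02 for H2-T23 and 3.56 ± 1.22 for Psmb8 (log2, SE), all at an adjusted p of 1. So were Psmb9 (3.73 ± 2.23), Tap1 (3.28 ± 1.90), Tapbp (0.41 ± 0.31), Tap2 (0.05 ± 0.55) and Nlrc5 (−0.35 ± 1.34). With the pool as a block 4 were called, H2-K1 (0.78, adjusted p = 0.00504), H2-D1 (0.75, 0.000382), B2m (0.81, 0.0019) and H2-T23 (2.30, 0.0192), of 36 genes in all. The Rag1-/- side of that test is again the single pair, with the spread taken from the wild-type pools, so these p-values too measure no spread between Rag1-/- libraries. With the labelled batch as the block none of the 10 was called, at 0.78 for H2-K1 (adjusted p = 0.336), 0.76 for H2-D1 (0.503), 0.82 for B2m (0.499) and 2.30 for H2-T23 (0.619).

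**Figure D2:**
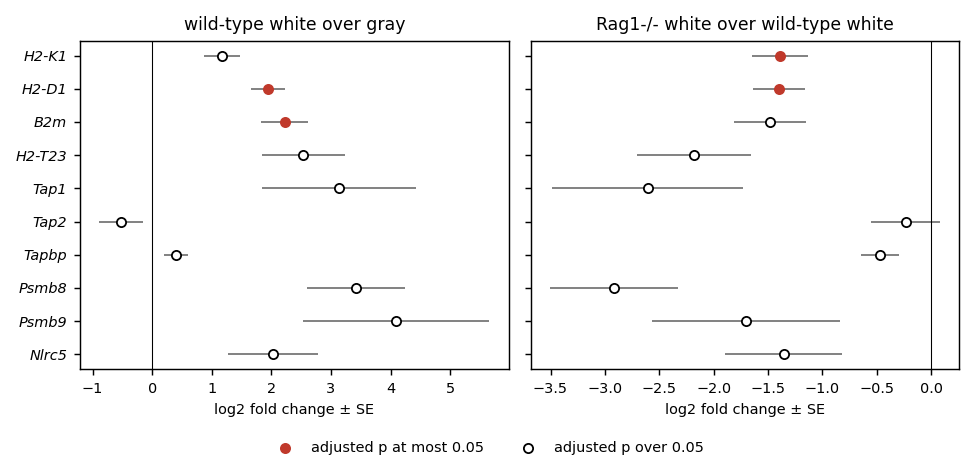
Fitted log2 fold change (x axis) with its SE as a bar for each of the 10 genes in all oligodendrocytes. The panels show wild-type white against gray matter and Rag1-/- white against wild-type white matter. Filled points passed an adjusted p of 0.05, and the wild-type gray values of Psmb9, Tap1 and Nlrc5 rest on 1, 4 and 5 UMIs.

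The authors' clusters divide the oligodendrocytes into Oligo1 and Oligo2, each with subclusters a to c, age-related oligodendrocytes (AROs) and interferon-responsive oligodendrocytes (IROs). The members were among the genes from which the clusters were drawn, so levels of clusters against each other are a description. Tests within a cluster, or with clusters left out, also pick cells partly by these genes. Their p-values take no account of that choice. In wild-type white matter libraries 1 and 2, H2-D1 was at 189 and 146 CPM in Oligo1, 414 and 231 in Oligo2, 580 and 273 in AROs, and 2442 and 1290 in IROs. B2m followed the same order in library 1, from 103 in Oligo1 over 246 and 319 to 1531 in IROs. In library 2 Oligo2 (125) and AROs (123) were level, between Oligo1 (63.3) and IROs (808).

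**Figure D3:**
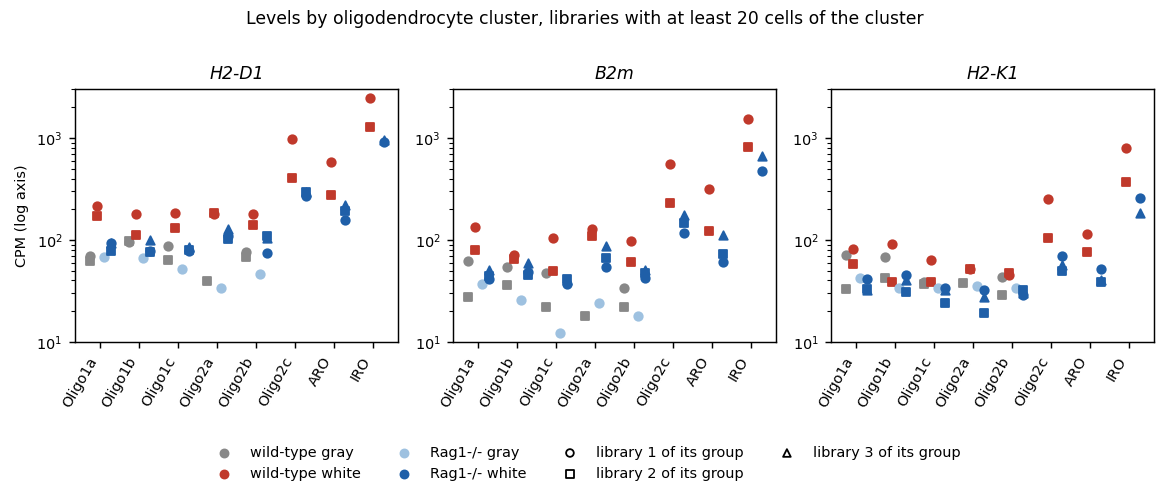
Level of H2-K1, H2-D1 and B2m in each oligodendrocyte cluster (x axis) of each library, in CPM on a log axis shared by the panels, 1 point a library with at least 20 cells of the cluster. IROs stand highest, followed by Oligo2c and AROs, and within these clusters wild-type white matter libraries lie above Rag1-/- libraries.

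Subcluster Oligo2c stood apart from the rest of Oligo2. Its H2-D1 was at 973 and 407 in wild-type white matter and at 267, 296 and 298 in Rag1-/- white matter, against 45.8 to 178 in Oligo2b over all libraries. Its B2m was at 561 and 229 against 116, 147 and 176. The summed interferon-induced markers (such as Ifit1 and Usp18) of Oligo2c came to 305 and 342 in wild-type and to 167, 47.6 and 155 in Rag1-/- white matter. Each gray library held a single cell of it, so no tissue comparison could be made there.

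Oligo1 and Oligo2 were each tested between tissues, which asks whether the difference is seen outside the interferon-responsive cluster. Oligo2 of white matter includes Oligo2c, 36 of 129 cells in wild-type library 1 and 348 of 1280 in library 2, which held 69.6% and 50.4% of the H2-D1 UMIs of Oligo2 there. In Oligo2, where 9 members could be tested (Psmb9 was too low), H2-K1 (1.34 ± 0.26, edgeR adjusted p = 0.0312), H2-D1 (2.16 ± 0.26, 0.00182) and B2m (2.63 ± 0.39, 0.00763) were higher in wild-type white matter, with 1.26% of 11709 genes called. H2-D1 was at 83.6 and 65.2 in gray and at 414 and 231 in white matter. Psmb8 (2.87 ± 0.87), H2-T23 (2.56 ± 0.76), Nlrc5 (1.32 ± 0.97), Tap1 (0.86 ± 1.35), Tapbp (0.28 ± 0.24) and Tap2 (−1.28 ± 0.59) were not called, with adjusted p from 0.184 to 0.967. All 3 calls were lost without wild-type gray library 2 (adjusted p = 0.453, 0.153 and 0.301), and that of H2-K1 also without gray library 1 (0.0981), white library 1 (0.0721) or wild-type pool 1 (0.100). Without pool 1, which leaves a single library of each wild-type tissue, H2-D1 was at 1.82 and B2m at 2.54. The spread in that fit comes from the Rag1-/- white libraries. Irf9 was the one gene of the other lists called (1.61 ± 0.34, adjusted p = 0.0451). The block added H2-T23 (2.64, adjusted p = 0.0114) and Psmb8 (2.85, 0.0306), with 706 genes called in all, and left 1 residual degree of freedom.

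With Oligo2c left out, an alternative added after the data were seen, the values were smaller. H2-D1 of the remaining Oligo2 was at 74.6 and 65.2 CPM in wild-type gray and at 179 and 160 in white matter (1.30 ± 0.17, edgeR adjusted p = 0.00254). B2m was called as well (1.80 ± 0.29, 0.0122), and H2-K1 was not (0.61 ± 0.17, 0.18). H2-K1 was at 37.3 and 29.8 in gray and at 49.0 and 49.1 in white matter. Between genotypes H2-K1 was then at −0.73 ± 0.14 (0.0266) and H2-D1, no longer called, at −0.64 ± 0.14 (0.0572).

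In Oligo1, where 9 members were tested (all but Nlrc5), none passed the threshold by edgeR (0 called, 2 at an unadjusted p under 0.05, 2 by DESeq2, 0.139% of 12256 genes called). H2-D1 was at 86.8 and 84.5 in gray and at 189 and 146 in white matter (0.98 ± 0.16, adjusted p = 0.0676), and B2m at 53.3 and 31.9 against 103 and 63.3 (1.02 ± 0.28, 0.373). Neither gene's tissues overlapped, and how many of all genes do so in Oligo1 was not counted. With the pool as a block both were called, H2-D1 at 0.91 (adjusted p = 2.34e-19) and B2m at 0.98 (9.96e-14), of 634 genes in all. Tap2 had the lowest value, −1.03 ± 0.50 (adjusted p = 0.859), and Tap1 (2.90 ± 1.58), Psmb9 (2.42 ± 1.58), Psmb8 (1.65 ± 1.10), H2-K1 (0.35 ± 0.26), Tapbp (0.02 ± 0.21) and H2-T23 (−0.05 ± 0.73) had adjusted p of at least 0.904.

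Subclusters fitted alone, an analysis added after the data were seen, gave 4 tissue calls by edgeR. H2-D1 was higher in wild-type white matter in Oligo1a (1.57, adjusted p = 0.0402, 0.0474% of genes called), Oligo1c (1.10, 0.0458, 0.247%) and Oligo2a (2.22, 0.0371, 0.0277%), and B2m in Oligo2b (1.52, 0.0263, 0.154%). Wild-type gray library 1 held 11 cells of Oligo2a and was not used there, so the Oligo2a value rests on 1 wild-type gray library that was assumed to vary like the other groups. H2-K1 was at 0.46 in Oligo2a (adjusted p = 0.947) and at 0.50 in Oligo2b (0.851). In Oligo1b no member was called.

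Between genotypes, H2-D1 was lower in Rag1-/- than wild-type white matter in Oligo1 (−0.94 ± 0.14, edgeR adjusted p = 0.0112, 0.734% of genes called), at 83.6, 77.9 and 91.7 against 189 and 146. The other members tested in Oligo1 were not called (adjusted p of at least 0.336), with B2m at −0.84 ± 0.23, H2-K1 at −0.76 ± 0.22, Psmb8 at −1.05 ± 0.83, Tap1 at −0.95 ± 0.97, H2-T23 at −0.55 ± 0.66, Psmb9 at −0.50 ± 0.97, Tapbp at −0.13 ± 0.18 and Tap2 at 0.31 ± 0.44. The call was lost without wild-type white library 1 (−0.74, 0.0596), without wild-type pool 1 (0.071) or without Rag1-/- white library 2 (0.0864). In Oligo2, H2-K1 (−1.24 ± 0.20, adjusted p = 0.0103) and H2-D1 (−1.14 ± 0.20, 0.0178) were lower, with 0.905% of genes called. There B2m (−1.24 ± 0.29), Psmb8 (−1.84 ± 0.52), Tap1 (−1.53 ± 0.94), Nlrc5 (−0.97 ± 0.63), H2-T23 (−0.91 ± 0.43), Tapbp (−0.45 ± 0.19) and Tap2 (0.47 ± 0.48) were not called, with adjusted p from 0.101 to 0.971. Without wild-type white library 1, H2-K1 and H2-D1 of Oligo2 were at −0.88 (0.0528) and −0.69 (0.11), without wild-type pool 1 at −0.87 (0.0693) and −0.68 (0.164), and without Rag1-/- white library 2 H2-D1 was at −1.15 (0.0629). Fitted alone, Oligo1a (−1.08, adjusted p = 0.0066, 0.730% called) and Oligo1c (−0.89, 0.00879, 0.920%) showed the H2-D1 difference and Oligo2c that of H2-K1 (−1.39, 0.0373, 0.891%).

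In AROs, of which 107 and 886 came from wild-type and 421, 114 and 609 from Rag1-/- white matter, H2-K1 was at 115 and 75.8 CPM in wild-type and at 51.5, 39.1 and 40.2 in Rag1-/- mice. It was lower in Rag1-/- mice (−1.03 ± 0.20, edgeR adjusted p = 0.0256, 0.990% of 10102 genes called), the 1 call among 7 members tested. The call was lost without wild-type white library 1 (−0.74, 0.168), Rag1-/- white library 2 (−0.98, 0.0942) or 3 (−0.97, 0.243). H2-D1 was at 580 and 273 against 158, 192 and 219 (−1.09 ± 0.25, adjusted p = 0.0777). B2m (−1.31 ± 0.34), Psmb8 (−1.97 ± 0.74), H2-T23 (−1.28 ± 0.82), Tap2 (−0.37 ± 0.52) and Tapbp (−0.31 ± 0.24) had adjusted p from 0.162 to 0.983, and Tap1, Psmb9 and Nlrc5 were too low to test.

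IROs were few, and H2-K1, H2-D1 and B2m were highest in them in each white library. They were 29 of 494 oligodendrocytes (5.87%) and 123 of 4106 (2.996%) in wild-type white matter, and 39 of 3055 (1.28%), 17 of 1632 (1.04%) and 33 of 3859 (0.855%) in Rag1-/- white matter. Wild-type gray libraries held 1 and 5 IROs and the Rag1-/- gray library none. Over the 10 members the median ratio of the IRO level to that of all other oligodendrocytes of the same library lay between 6.37 and 9.14 in the 5 white libraries. Single members went down to a ratio of 0 in Rag1-/- libraries, with no UMI in IROs for Psmb9 in libraries 1 and 2 and for Tap2 and Nlrc5 in library 2.

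Within IROs, H2-K1 was at 789 and 367 CPM in wild-type and at 260, 227 and 183 in Rag1-/- white matter. H2-T23 was at 279 and 65.7 against 55.3, 124 and 26.6. Psmb8 was at 199 and 51.8 against 19.4, 20.6 and 8.86. H2-K1, Psmb8, H2-D1 and B2m were higher in both wild-type libraries than in any Rag1-/- library. H2-T23 of Rag1-/- library 2, which had 17 cells, lay between the wild-type values. How many of all genes show such an order in IROs was not counted.

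The test of IROs used libraries with at least 20 cells and so left out Rag1-/- white library 2. None of 6 members tested was called by edgeR (5 at an unadjusted p under 0.05, 0 by DESeq2, 0.614% of 5215 genes called), with H2-K1 at −1.30 ± 0.33, H2-D1 at −0.94 ± 0.26, B2m at −0.97 ± 0.28, H2-T23 at −1.80 ± 0.63, Psmb8 at −2.86 ± 0.72 and Tapbp at −0.57 ± 0.39. This answer depended on the setting. With the limit at 10 cells, which returns library 2, H2-K1 (−1.27, adjusted p = 0.0219) and Psmb8 (−2.71, 0.0254) were called among 43 of 5418 genes, and without the filter on low counts 5 members were among 71 of 12640 genes. Psmb8 rested on 7, 4 and 3 UMIs in IROs of Rag1-/- white libraries 1, 2 and 3. It passed the filter on low counts only through the wild-type libraries, where it is high, so its values in IROs are a description. Leaving out wild-type white library 1 gave 0 calls among the members and 40 over all genes, with H2-K1 at −0.68 ± 0.32 (adjusted p = 1.00), H2-D1 at −0.41 ± 0.27 and Psmb8 at −1.80 ± 0.55 (0.151). Leaving out wild-type white library 2 gave 5 of 62 genes called, Rag1-/- library 1 gave 4 of 57 and Rag1-/- library 3 gave 5 of 47. These 4 fits hold 3 libraries each, and the lone library of a group was assumed to vary like the other group. The interferon-induced marker sum of IROs was 1261 and 1090 in wild-type and 575, 211 and 618 in Rag1-/- white matter.

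A small cluster can carry a large share of a transcript. In wild-type white library 1, IROs held 5.65% of all oligodendrocyte UMIs but 71.8% of those of H2-T23, 58.3% of Psmb8, 57.6% of Tap1, 33.1% of H2-K1, 31.3% of B2m and 29.1% of H2-D1. In wild-type white library 2 they held 3.13% of all UMIs and 43.5% of H2-T23, 39.7% of Psmb8, 16.4% of H2-K1, 20.6% of B2m and 16.7% of H2-D1. Tapbp was the least concentrated member, at 15.7% and 7.83%. In Rag1-/- white matter IROs held 0.838% to 1.31% of all UMIs, 5.45% to 9.89% of H2-D1 and 7.83% to 37.5% of H2-T23. Oligo2c held 10.6% of all UMIs in wild-type white library 2, with 33.8% of H2-T23, 31.7% of Tap1 and 28.5% of Psmb8. In wild-type white library 1 it held 9.08% of all UMIs, with 1.53% of H2-T23, 3.03% of Tap1 and 2.61% of Psmb8. In Rag1-/- white libraries 1, 2 and 3 Oligo2c held 10.2%, 9.38% and 23.5% of H2-T23.

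**Figure D4:**
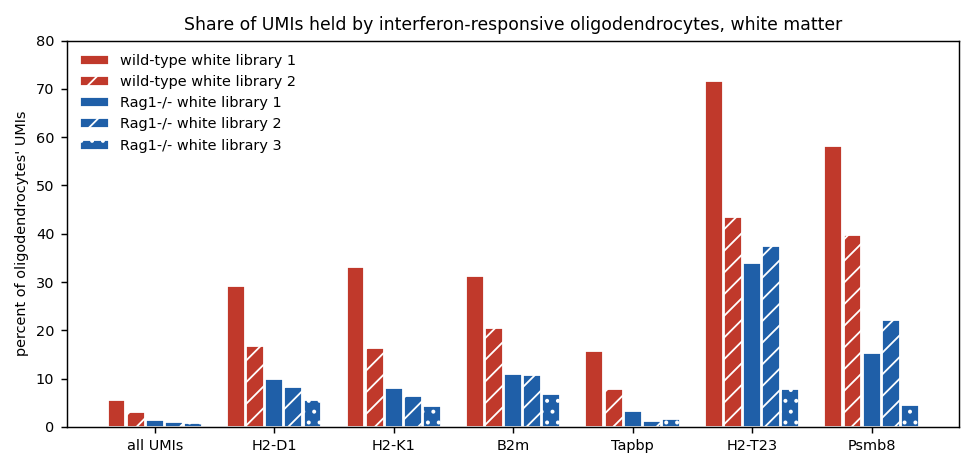
Percent of the oligodendrocyte UMIs of each gene that came from IROs (y axis, from 0) in the 5 white matter libraries, beside the share of all UMIs. In wild-type libraries the shares of H2-T23 (71.8 and 43.5%) and Psmb8 (58.3 and 39.7%) exceed those of H2-D1 (29.1 and 16.7%) and Tapbp (15.7 and 7.83%).

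With IROs taken out, H2-D1 of the remaining oligodendrocytes was at 356 and 208 CPM in wild-type white matter, 89.1 and 77.3 in wild-type gray matter, and 112, 113 and 139 in Rag1-/- white matter. Its tissue difference was then 1.78 ± 0.24 (edgeR adjusted p = 0.0129) and its genotype difference −1.15 ± 0.20 (0.0376). B2m differed between tissues by 2.00 ± 0.37 (0.0476). H2-K1 was then at −1.08 ± 0.21 between genotypes and no longer called (0.0629). The estimates for H2-T23, which is concentrated in IROs and in some libraries also in Oligo2c, went from 2.53 to 1.08 between tissues. Between genotypes they went from −2.18 to −1.07.

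The remaining cells still differed in makeup between tissues. AROs were 107 of 494 and 886 of 4106 oligodendrocytes in wild-type white matter and 1 and 0 in wild-type gray matter, and held 27.6% and 25.2% of the white H2-D1 UMIs. Oligo2c was 36 and 348 cells against 1 and 1, with 18.7% and 17.8% of these UMIs. With AROs, IROs and Oligo2c all taken out, also an alternative added after the data were seen, H2-D1 was at 186 and 152 CPM in wild-type white, 82.8 and 77.3 in wild-type gray, and 87.0, 89.8 and 104 in Rag1-/- white matter. It was still called between tissues (1.09 ± 0.15, edgeR adjusted p = 0.0251) and between genotypes (−0.80 ± 0.13, 0.022). B2m between tissues (1.26 ± 0.28, 0.153) and H2-K1 between genotypes (−0.79 ± 0.18, 0.158) were not. In that fit 39 of 12920 genes were called between tissues and 101 between genotypes. In sums over all oligodendrocytes, the makeup of clusters and the level within them cannot be told apart.

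Microglia, the resident macrophages of the brain, were read in Rag1-/- mice. H2-D1 was at 518 CPM in the gray library and at 1156, 1248 and 1040 in the white libraries, and B2m at 1288 against 2138, 3207 and 2749. H2-K1 was at 443 against 828, 686 and 574. For all 3 genes each white library lay above the single gray one, an order that was not counted over all genes in microglia. H2-D1 (1.38 ± 0.15, edgeR adjusted p = 0.00441) and B2m (1.30 ± 0.21, 0.019) were higher in white matter, with 3.46% of 12050 genes called, and H2-K1 at 0.89 ± 0.21 was not (0.0711). The B2m call was lost without Rag1-/- white library 2 (1.17, 0.0536), and without white library 1, which left 2 against 1, 7 members were called in a fit that called 24.7% of 11760 genes. The single gray library was assumed to vary like the white ones. It is of batch 1, as is white library 1, and white libraries 2 and 3 are of batch 2. With the batch as a block, which takes the difference from the batch 1 pair and leaves 1 residual degree of freedom, 4 members were called, H2-D1 (1.40, edgeR adjusted p = 9.52e-07), B2m (0.97, 1.01e-05), H2-K1 (1.14, 7.66e-06) and Psmb8 (0.37, 0.0339), among 1339 of 12050 genes.

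None of the other members was called in microglia. Psmb8 was at 252 in gray and 277, 283 and 282 in white matter (0.39 ± 0.13, adjusted p = 0.202), Tapbp at 149 against 149, 181 and 156 (0.36 ± 0.16, 0.329) and Tap1 at 39.2 against 42.4, 51.5 and 45.4 (0.47 ± 0.16, 0.21). Fitted changes use TMM-scaled library sizes and can differ from the ratio of the CPM values. Psmb9 was at 90.1 in gray and 76.5, 89.8 and 88.7 in white matter, yet its fitted change was 0.15 ± 0.15. H2-T23 was at 130 in gray and at 118, 289 and 228 in white matter, so white library 1 lay below and the other two above the gray library (0.93 ± 0.42, adjusted p = 0.354). Nlrc5 was at 0.88 ± 0.58 (0.526) and Tap2 at 0.04 ± 0.21 (0.96). Of the pathway lists, H2-Q7, another heavy chain, was higher in white matter (28.2 ± 6.45, n = 3, against 10.8; 1.64 ± 0.29, adjusted p = 0.0249) as was Cd74, the class II invariant chain (319 ± 75.0 against 91.2; 2.04 ± 0.26, 0.00829), out of 11 and 6 tested. Reads of H2-Q7 may be shared with close copies of it.

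Among microglial clusters, which were also drawn with these genes, interferon-responsive microglia held the highest Tap1 (209 to 340 CPM) and H2-T23 (317 to 806) in every library, on 9 to 37 cells each. H2-D1 was lowest in Homeostatic1 (489 to 728) in every library. It was at 1359 to 1780 in white matter-associated microglia and at 1436 to 1559 in interferon-responsive microglia of the white libraries. Homeostatic1 was 1634 of 1732 microglia in the gray library and 785 of 3617, 248 of 707 and 577 of 1365 in white libraries. Its own H2-D1 was at 489 in gray and at 522, 728 and 572 in white matter. B2m of white libraries 2 and 3 exceeded that of library 1 in each of the 5 clusters, which is also the split between the labelled batches.

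T cells are known for high class I levels, and these genes were far above their oligodendrocyte levels in them. H2-K1 was at 2992, 3213 and 2744 CPM in the T cells of wild-type gray library 2 and white libraries 1 and 2, which held 23, 52 and 328 T cells, and gray library 1, with 3 T cells, was not used. All 10 members were higher in T cells than in oligodendrocytes of the same libraries by edgeR, from 3.41 ± 0.20 (log2, SE) for Tapbp over 5.59 ± 0.34 for H2-K1 to 8.73 ± 0.54 for Psmb9, with 27.2% of 11581 genes higher. H2-D1 (3.63), B2m (4.66), Tap2 (5.60), H2-T23 (5.87), Nlrc5 (5.93), Tap1 (6.83) and Psmb8 (7.497) lay between. Every member stayed called without any one of the 3 libraries, in fits that called 4229 to 5626 of all genes tested. Gray library 2 and white library 2 share their mice, so the 3 libraries are not 3 separate pools.

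**Figure D5:**
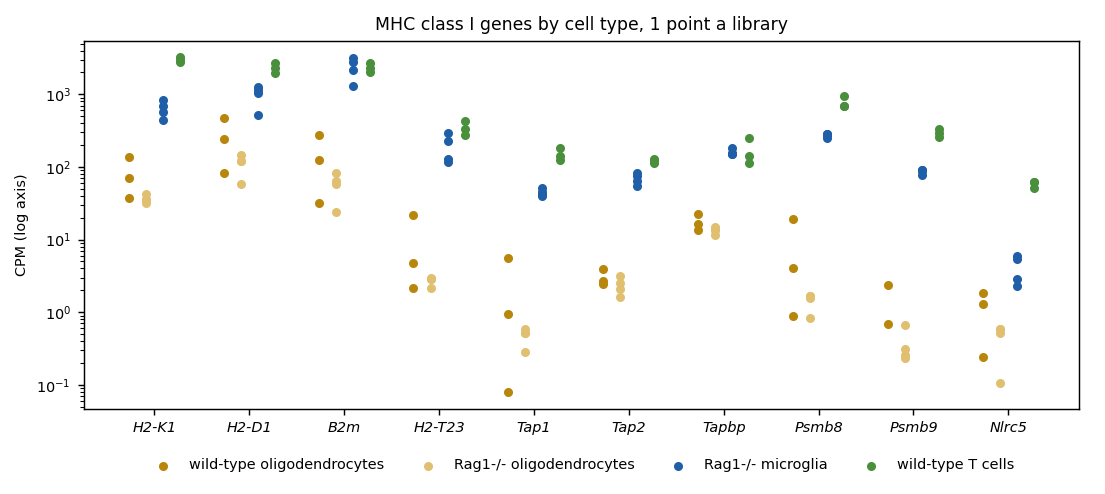
Level of each of the 10 genes (x axis) in oligodendrocytes, Rag1-/- microglia and wild-type T cells, in CPM on a log axis, 1 point a library. T cells lie above the oligodendrocytes of the same libraries for each gene. Wild-type gray library 1, with 3 T cells, is left out of both wild-type cell types, and Psmb9 at 0 in oligodendrocytes of wild-type gray library 2 cannot be drawn.

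The T cells were checked against markers the choice did not use. Cd8b1, a chain of the CD8 receptor, was at 580, 562 and 649 CPM, Trac, the T cell receptor alpha constant gene, at 411, 509 and 442, and Cd4 at 108, 36.6 and 31.1. Summed microglial markers were at 112, 4478 and 1466 and summed oligodendrocyte markers at 2656, 2827 and 7819. The part of RNA of other cells in these levels was not tested. In Rag1-/- libraries, 2 gray matter cells and 24, 3 and 2 white matter cells met the same Cd3 limit.

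Other genes of class I presentation were mostly higher in T cells as well. All 10 other heavy chains tested were higher, among them H2-Q6 at 247 ± 14.8 against 0.240 ± 0.230 (10.58 ± 0.33) and H2-Q7 at 1125 ± 103 against 1.99 ± 2.15 (9.75 ± 0.61), near-identical copies whose reads may be split. Of 7 genes of peptide generation 4 were higher, led by Psme1 (4.72 ± 0.23) of the proteasome activator, and 1 lower, Psmb7, a constitutive catalytic subunit (−1.14 ± 0.22). Of 6 loading factors, Tapbpl was higher (4.59 ± 0.33) and the chaperone Canx lower (−1.11 ± 0.21). Of 17 regulators 12 were higher, with Irf8 (4.94 ± 0.44) and Irf1 (4.51 ± 0.38) first, and all 6 class II genes tested were higher.

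The 5 members abundant enough (H2-K1, H2-D1, B2m, H2-T23 and Tapbp) varied together over 53 sums of a cluster in a library of oligodendrocytes. Pearson's r on the log2 scale, with a pseudocount of 1, ran from 0.74 (B2m with Tapbp) to 0.98 (H2-D1 with B2m). These sums share libraries and depth, so r is a description. Among 7895 genes, those most like the mean of the 5 included H2-T22 (r = 0.87), a heavy chain, Ifi27l2a (0.83), Ifi27 (0.83), Irf9 (0.77), Psme1 (0.74), Stat2 (0.72), which acts together with Irf9, and Slc3a2 (0.68), the heavy chain of amino acid transporters. Of these, Irf9 was also called between wild-type tissues, whereas H2-T22 was not (0.83 ± 0.27, adjusted p = 0.288).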

How the data were processed

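The members and gene lists were chosen with earlier results of these data known. The deposited tables hold whole-number UMI counts that the authors made with Cell Ranger (version 4 and mm10 per the labels, several versions per the methods). Their cell filters differed between experiments, and a small set of Rag1-/- cells bearing microglial markers had been taken out. Oligodendrocyte and microglia clusters are the authors' own, and doublets were not called again. The microglia table also lists cells of another series, which were not used.

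Counts were summed per library and class and fitted in edgeR 4.0.16 (R 4.3.3; limma 3.58.1) to 4 groups, one for each tissue in each genotype, after filterByExpr and TMM. The quasi-likelihood F test was two-sided, and genes were called at an adjusted p of 0.05 (Benjamini-Hochberg over all genes tested). Each SE was taken from the log2 value and F. Classes needed 20 cells in a library, T cells 10, and T cells were fitted against oligodendrocytes with the library as a block. Libraries, not cells, are the replicates, and a pool's mice are mixed in its library, so a p-value measures the spread between these libraries. With the pool as a block 1 residual degree of freedom is left, so those p-values measure little of it. All 10 members are named in every comparison that could test them, and of the other lists up to 4 called genes with the largest change. Values of some listed genes are left out of the text. The fits were tested on simulated data. DESeq2 1.42.0, no filter, a ceiling of 20000 UMIs per cell, libraries or clusters left out and the pool or the labelled batch as a block were alternatives. The pairing comes from the shared mice, and residuals of the gray and white library of wild-type pool 1 had r = 0.41 over 13067 genes. The ceiling of 3 counts given for a count of 0 covers counting error alone. In sums over cells, fewer cells of a kind and less RNA per cell cannot be told apart.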

Additional observations from a re-analysis of the deposited data

Results flagged for a closer look

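For 2 genes the oligodendrocytes of the 2 wild-type pools moved one way between tissues and those of the Rag1-/- pool the other. H2-T23 in white minus gray matter was 19.8 CPM in wild-type pool 1 and 2.56 in pool 2, but −0.685 in the Rag1-/- pool. Psmb9 was 1.98 and 0.685 in the wild-type pools and −0.0600 in the Rag1-/- pool. These differences were picked by sign alone. Rag1-/- white libraries 2 and 3, which have no gray partner, do not enter these differences. H2-T23 of both lay slightly above the Rag1-/- gray library, and Psmb9 lay above it in library 3 and below it in library 2. In the fitted interaction without a block both genes had an adjusted p of 1 by edgeR's quasi-likelihood test. Psmb9 rests on at most 30 UMIs a library, with 1 and 0 in wild-type gray libraries, 3 in the Rag1-/- gray library and 7 in its white partner. With the pool as a block, where the Rag1-/- side is a single pair, the interaction called H2-T23 but not Psmb9. With the labelled batch as the block it called neither. No group has 4 libraries, so none was checked for a library far from the others.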

How the results depend on the processing

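Depth limits Tap1, Psmb9 and Nlrc5 in oligodendrocytes, and 1 to 3 libraries a group limit every call. Counts of members called, by the order wild-type tissue, genotype, Rag1-/- tissue and interaction in all oligodendrocytes, were 2, 2, 0 and 0, and with the mouse pool as a replicate block 6 and, for Rag1-/- tissue and the interaction, 2 and 4. DESeq2 called 5, 4 and 1 in the first 3, and 2 for Oligo1 tissue and 2 for Oligo1 genotype, where it called 282, 195, 208, 72 and 119 of all genes against 131, 119, 57, 17 and 90 by edgeR. Without the filter, counts were 5 for genotype, 1 and 2 for Oligo1 tissue and genotype, 4 for AROs and 5 for IROs, with 0.909%, 0.493%, 0.887%, 1.31% and 0.562% of all genes called against 0.911%, 0.139%, 0.734%, 0.990% and 0.614% with the filter. With wild-type pool 1 left out (added after seeing the data) a single library of each wild-type tissue remains, so no count is given here. The genotype calls in all oligodendrocytes, Oligo1 and Oligo2 were lost in those fits. Wild-type libraries alone gave 0 for tissue and white libraries alone 0 for genotype. Without the interferon-responsive cluster genotype gave 1, and a minimum of 10 cells gave 2 for IROs. Counts over all genes are not given here for fits of wild-type or white libraries alone, without the interferon-responsive cluster or without Oligo2c. Leaving out AROs, IROs and Oligo2c (added after seeing the data) gave 1 for wild-type tissue and 1 for genotype, and leaving out Oligo2c gave 1 for Oligo2 genotype. The block gave 2 in Oligo1 and 5 in Oligo2 tissue. The labelled batch as a block (added after seeing the data) gave 6 for wild-type and 2 for Rag1-/- tissue and 2 for Oligo1 and 5 for Oligo2 tissue. It gave 4 for microglia and, as without a block, 0 for the interaction. In wild-type mice batch and pool coincide, so the batch block is no separate check on their tissue difference. Its counts over all genes for wild-type tissue are not given here. The mouse pool could not be a block for microglia, where it would leave no residual freedom, and the lone Rag1-/- gray library cannot be left out of its comparisons.

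With 1 library left out, counts ranged from 0 to 5 for wild-type tissue, genotype and IROs, 0 to 1 for Rag1-/- tissue, Oligo1 tissue and Oligo1 genotype, 0 to 3 for Oligo2 tissue and genotype, 0 to 4 for AROs, 1 to 7 for microglia, 0 for the interaction and 10 for T cells. Over all genes the counts in the same fits ranged from 2 to 142 for wild-type tissue, 80 to 137 for genotype, 16 to 264 for Rag1-/- tissue, 0 to 4 for the interaction, 3 to 23 for Oligo1 tissue, 6 to 260 for Oligo2 tissue, 69 to 99 for Oligo1 genotype, 83 to 172 for Oligo2 genotype, 86 to 153 for AROs, 40 to 62 for IROs and 170 to 2899 for microglia.

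Signs turned in uncalled members. Tap2 was at 0.12 for genotype and −0.30 for the interaction without the interferon-responsive cluster, and at −0.10 for the interaction without pool 1. In Rag1-/- tissue H2-T23 was at 0.0073 with cells under 20000 UMIs, and either block gave Tap1 0.14, Tapbp 0.13, Psmb8 0.076 and Psmb9 −0.31. Without AROs, IROs and Oligo2c, Tap2 was at 0.51 for genotype and −0.68 for the interaction and H2-K1 at −0.17 for Rag1-/- tissue. Without Oligo2c, Oligo2 gave Tap1 −0.88 for tissue and H2-T23 0.47 for genotype. In Oligo1, DESeq2 gave H2-T23 0.12 for tissue, the 20000 UMI limit gave Tapbp −0.0066, and leaving out pool 1 gave 0.75 for H2-T23 and 0.30 for Psmb8 between genotypes. Leaving out 1 library turned signs in these ranges: for Rag1-/- tissue, H2-K1 −0.0028 to 0.16, H2-T23 −0.19 to 0.071, Tap1 −0.32 to 0.052, Tapbp −0.077 to 0.064, Psmb8 −0.33 to 0.068 and Psmb9 −0.38 to 0.59. For the interaction they were Tap2 −0.11 to 0.26 and Nlrc5 −1.29 to 0.22, for Oligo1 tissue H2-T23 −1.33 to 1.03 and Tapbp −0.20 to 0.15, and for Oligo2 tissue Tap1 −0.93 to 2.30. For Oligo1 genotype they were H2-T23 −1.63 to 0.74 and Psmb8 −2.05 to 0.29, for AROs H2-T23 −2.58 to 0.0060, and for microglia Tap2 −0.11 to 0.14, which the batch block put at −0.24. The causes were not tested.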
